A study of Mus musculus with 4 samples.

Results

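Antibody-secreting plasma cells and the B cells they come from are described here through 10 genes, taken by symbol from the deposited table. They are Jchain, Mzb1, Derl3, Pou2af1, Tnfrsf17, Irf4, Prdm1, Xbp1, Cd79a and Cd79b. All 10 were found among the 54152 symbols of the table, and all 10 were among the 18530 genes with enough counts to be tested. Poly(A) RNA of whole uteri was sequenced from C57 mice at pregnancy day 4, with 2 libraries of p38α genotype dd and 2 of genotype ff. The series title sets p38α knockout against wild-type uteri. The labels name no Cre driver and no deleted exon. Whether each library is a separate animal is not stated either, so the p-values cover the spread among these 4 libraries, which may be technical.

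A B cell carries its antibody on the surface as part of the B cell receptor, whose signalling chains are CD79A and CD79B. When it becomes a plasma cell, the transcription factors IRF4 and BLIMP-1 (Prdm1) end the B cell programme, and XBP1 enlarges the endoplasmic reticulum (ER) to fold and export antibody. In mucosal tissues, including the uterus, plasma cells release dimeric IgA, in which 2 antibody units are held together by the joining chain, the product of Jchain. Xbp1, Prdm1 and Irf4 are also expressed by cells that make no antibody, so they are less specific than the other members.

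The libraries held between 24619850 and 32451670 counts. Mapk14, the gene of p38α, had 2481 and 3429 counts in the libraries labelled dd, against 3074 and 2710 in those labelled ff, and so was not lower in dd. Its log2 fold change was 0.28 (SE 0.09, edgeR adjusted p = 0.12). Whole-gene counts do not resolve a deletion of single exons, so every direction below rests on the labels alone. Of all tested genes 8.39% changed at an adjusted p under 0.05, of which 4.52% of all genes were higher in dd and 3.86% were lower.

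Of the 10 genes, 6 were higher in the libraries labelled dd and 0 were lower by edgeR's quasi-likelihood test, against the 4.52% and 3.86% of all tested genes just given. Jchain rose 14.3-fold, Cd79a 8.38-fold, Derl3 7.53-fold, Pou2af1 6.61-fold, Cd79b 3.91-fold and Irf4 2.81-fold. Mzb1, Tnfrsf17, Prdm1 and Xbp1 did not pass. No member was lower at an unadjusted p under 0.05 (0 genes), and DESeq2 and limma-voom also called 0 lower. Here and below, the share of all tested genes at that unadjusted threshold was not computed. It is above the shares of adjusted calls, so counts at an unadjusted p are given without a background. The median log2 change of the 10 genes was 2.35, beside 0.00 over all tested genes. In CPM, counts scaled to the size of each library, both dd libraries lay above both ff libraries for 8 members, where 31.6% of all tested genes did so, and below them for 1 member, where 31.3% did. The median and the 8 members include Tnfrsf17, which entered the test through the dd libraries alone, so that its direction was favoured by the filter. In these bulk samples, more cells of a type and more RNA per cell cannot be told apart.

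The 6 calls rested on all 4 libraries together. Without dd replicate 1, Jchain, Derl3, Pou2af1 and Cd79a were called (4 genes). Without dd replicate 2, Jchain and Derl3 were called (2 genes), and without ff replicate 2, Jchain and Pou2af1 (2 genes). Without ff replicate 1 no member was called (0 genes), in a fit that called 90 genes in all. In these 4 fits the log2 change of Jchain lay between 3.24 and 4.27 and that of Irf4 between 1.32 and 1.65, while that of Tnfrsf17 ran from 2.03 to 4.05. Over the 10 members, the CPM ratio of dd replicate 2 to dd replicate 1 ran from 1.12 for Mzb1 to 2.24 for Cd79a. The share of all tested genes higher in dd replicate 2 was not computed, so whether this is particular to the members is not known.

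**Figure D1:**
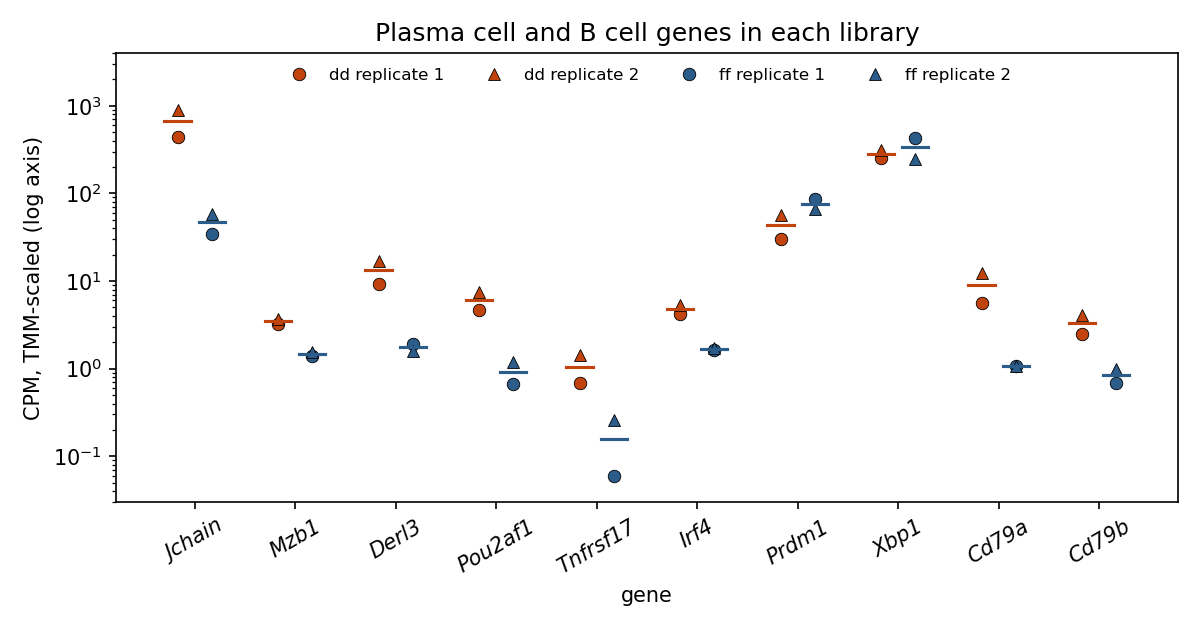
CPM of the 10 genes on a log axis, with each library as a point and the mean of each group as a bar. Both dd points lie above both ff points for 8 genes, Prdm1 has them below, and for Xbp1 the groups overlap.

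**Figure D2:**
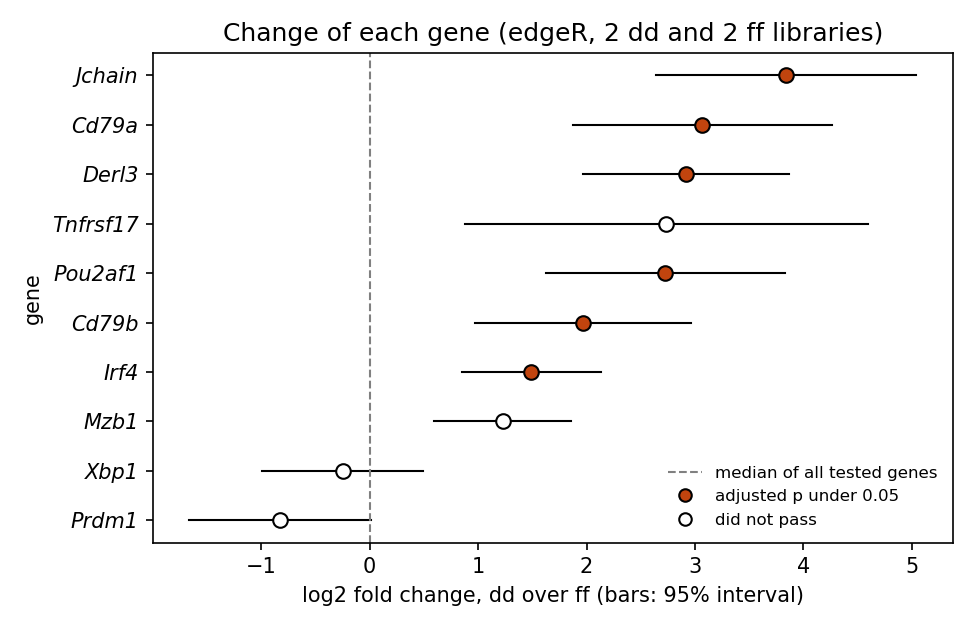
Log2 fold change of dd over ff for each gene with its 95% interval from the edgeR fit, filled where the adjusted p was under 0.05. The change runs from 3.84 for Jchain to -0.82 for Prdm1, and the dashed line is the median of all tested genes.

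Jchain (chromosome 5, 88519809 to 88527891, minus strand, mm10) was the member with the largest log2 change, and in the dd libraries also the one with the highest level. It had 10384 and 27100 counts in the dd libraries, against 1154 and 1821 in the ff libraries. The dd libraries thus lay far above the ff libraries, and within each group the replicates still differed, by a CPM ratio of 2.04 in dd and 1.69 in ff. Jchain averaged 667 ± 322 CPM in dd and 46.6 ± 16.8 CPM in ff (SD, n = 2 each), a log2 change of 3.84 (SE 0.46, 95% interval 2.64 to 5.04, adjusted p = 0.0246). Without ff replicate 1 the log2 change was 3.51 and the call was lost (adjusted p = 0.0763). Immunoglobulin genes of all classes and light chains took 0.396% and 0.961% of all counts in the dd libraries and 0.0494% and 0.0759% in the ff libraries. Igha, the constant region of IgA, had 41243 and 122372 counts in dd, against 6847 and 10052 in ff (log2 3.45, adjusted p = 0.0293), and the kappa light chain Igkc had a log2 change of 3.75 (adjusted p = 0.0253). Ighm, the constant region of IgM, the other class that carries a joining chain, had 319 and 248 counts in dd and 509 and 505 in ff and did not pass (adjusted p = 0.249). Constant regions of IgG were also called higher, with log2 changes above that of Igha, though some entered the test through the dd libraries alone.

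Mzb1 (chromosome 18, 35647267 to 35649367, minus strand) encodes an ER protein of B cells and plasma cells that helps antibody fold and leave the cell. It had 77 and 111 counts in the dd libraries and 47 and 48 in the ff libraries, or 3.46 ± 0.287 CPM in dd and 1.48 ± 0.0913 CPM in ff (SD, n = 2 each). The groups did not overlap and the replicates lay close together. The log2 change was 1.23 (95% interval 0.60 to 1.86), and its adjusted p of 0.0502 missed the threshold. Mzb1 passed in 7 of 15 alternative fits, among them DESeq2 (adjusted p = 0.0179), and its adjusted p ranged from 0.0179 to 0.19 over all 15.

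**Figure D3:**
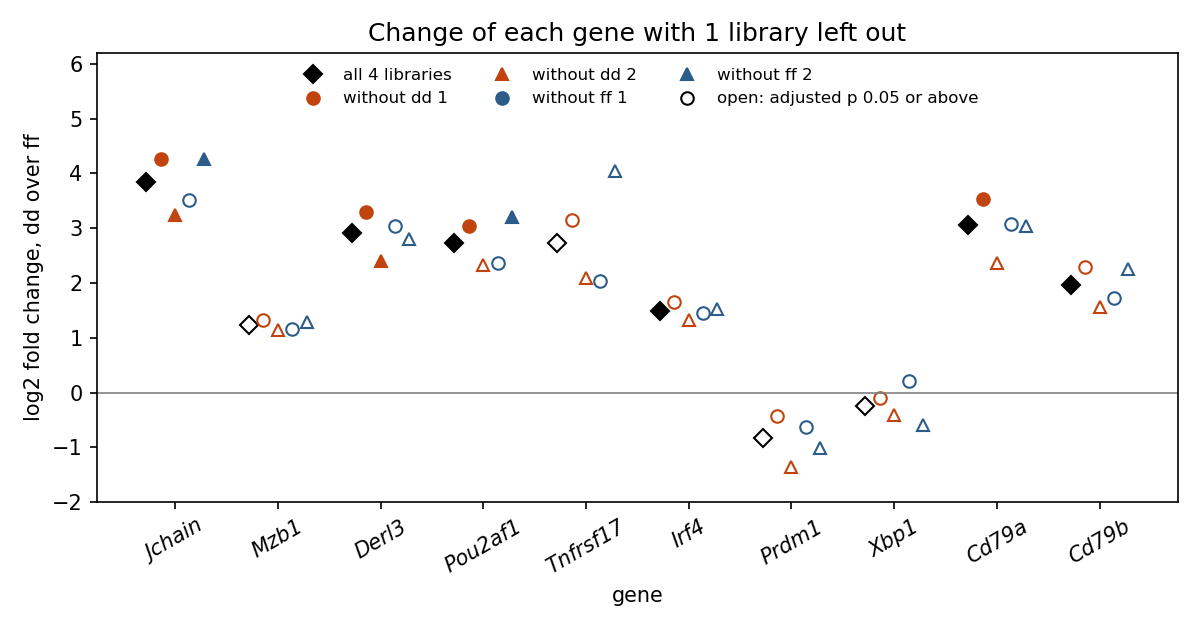
Log2 fold change of dd over ff for the 10 genes with all 4 libraries and with each library left out in turn, filled where the adjusted p was under 0.05. Without ff replicate 1 no gene is filled, while the positions of Jchain, Derl3, Pou2af1, Cd79a and Tnfrsf17 stay above 2. Tnfrsf17 is open in every fit shown.

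Derl3 (chromosome 10, 75893413 to 75895941, plus strand) encodes Derlin-3, part of the machinery that removes misfolded proteins from the ER. It had 219 and 518 counts in the dd libraries and 63 and 50 in the ff libraries, so that the lower dd library still held more than 3 times the counts of the higher ff library. Its means were 13.2 ± 5.54 CPM in dd and 1.75 ± 0.203 CPM in ff (SD, n = 2 each), a log2 change of 2.91 (SE 0.37, adjusted p = 0.0255). It did not pass without ff replicate 1, at an adjusted p of 0.0857, nor without ff replicate 2, at 0.0537. Pou2af1 (chromosome 9, 51213708 to 51240080, plus strand) encodes OBF-1, a B cell co-activator that works with octamer-binding factors on immunoglobulin promoters. It had 110 and 229 counts in dd, against 22 and 37 in ff, again without overlap. Pou2af1 averaged 6.11 ± 2.05 CPM in dd and 0.924 ± 0.373 CPM in ff (log2 2.73, SE 0.43, adjusted p = 0.0331). Leaving out dd replicate 2 gave Pou2af1 an adjusted p of 0.083, and leaving out ff replicate 1 gave 0.103.

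The promoters of Derl3, Pou2af1 and Jchain, which were among the genes that rose, are shown for the letters that B cell and ER stress factors are known to read. Cd79a and Irf4 rose too, and their promoters were searched but are not shown. The windows run from 250 bases before to 50 bases after the start site in RefSeq (GRCm38.p6). Those of 8 of the 10 members were searched, and the promoters of Mzb1 and Cd79b were not examined. Both strands were searched for the octamer ATGCAAAT, the unfolded protein response element TGACGTGG read by XBP1, the interferon-stimulated element GAAANNGAA read by IRF factors, and the pieces CCAAT and CCACG of the ER stress element. In the 3 sequences below, written 5′ to 3′ on the strand of the gene, capitals mark TGACGTGG, CCAAT and CCACG on either strand. The Derl3 window is chr10:75893148-75893447, that of Pou2af1 is chr9:51213440-51213739 and that of Jchain is chr5:88527848-88528147.
Derl3: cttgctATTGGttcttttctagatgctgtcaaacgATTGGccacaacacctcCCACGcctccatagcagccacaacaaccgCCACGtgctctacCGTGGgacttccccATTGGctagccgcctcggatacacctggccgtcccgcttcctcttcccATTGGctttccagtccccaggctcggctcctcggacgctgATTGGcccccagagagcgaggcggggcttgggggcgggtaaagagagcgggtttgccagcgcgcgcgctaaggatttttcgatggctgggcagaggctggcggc
Pou2af1: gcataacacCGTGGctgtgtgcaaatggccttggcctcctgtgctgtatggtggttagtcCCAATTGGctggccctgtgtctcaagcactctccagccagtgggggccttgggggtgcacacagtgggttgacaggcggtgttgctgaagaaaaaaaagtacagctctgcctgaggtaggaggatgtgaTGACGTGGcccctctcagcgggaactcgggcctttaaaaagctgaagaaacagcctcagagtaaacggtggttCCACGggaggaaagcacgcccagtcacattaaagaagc
Jchain: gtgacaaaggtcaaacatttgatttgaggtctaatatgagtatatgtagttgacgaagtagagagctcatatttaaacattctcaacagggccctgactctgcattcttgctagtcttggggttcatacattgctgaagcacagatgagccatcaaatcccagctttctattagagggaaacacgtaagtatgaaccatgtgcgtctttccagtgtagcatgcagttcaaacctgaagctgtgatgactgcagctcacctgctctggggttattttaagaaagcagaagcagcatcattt
In Derl3 there were 5 matches of CCAAT and 3 of CCACG, and 1 pair on the minus strand had the 9-base spacing of a full ER stress element, starting 156 bases before the start site. That spacing occurred in 0.119% of 32851 promoters of this length. Pou2af1 held TGACGTGG 61 bases before its start site, a match found in 0.676% of all promoters, and 1 of its 3 CCACG matches lies within it. None of the marked letters was in the Jchain window, and the octamer (1.74% of all promoters) was in 0 of the 8 windows. Neither TGACGTGG nor the full ER stress element was in the windows of Cd79a, Irf4, Tnfrsf17, Prdm1 or Xbp1. Cd79a and Irf4 each held 1 match of CCACG and none of CCAAT. The interferon-stimulated element (8.56% of all promoters) was in that of Tnfrsf17. CCAAT alone was in 37.4% and CCACG alone in 32.8% of all promoters. These matches describe letters and are not measured binding sites.

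Of the 3 transcription factors of the plasma cell programme, Irf4 rose, and Prdm1 and Xbp1 did not pass. Irf4 (chromosome 13, 30749226 to 30766976, plus strand) had 100 and 160 counts in the dd libraries and 55 and 54 in the ff libraries, with no overlap. It averaged 4.76 ± 0.742 CPM in dd and 1.69 ± 0.0576 CPM in ff (SD, n = 2 each), a log2 change of 1.49 (SE 0.25, adjusted p = 0.0367). Leaving out any 1 of the 4 libraries ended the call of Irf4, with adjusted p between 0.0653 and 0.14. Irf4 is also made by macrophages, dendritic cells and activated T cells, and the part of these cells in its rise was not tested.

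Prdm1 (chromosome 10, 44437177 to 44528501, minus strand) had 704 and 1704 counts in the dd libraries and 2870 and 2067 in the ff libraries. Both dd libraries were below both ff libraries, at 29.8 and 56.3 CPM in dd and 86.2 and 66.4 CPM in ff. The log2 change of -0.82 (95% interval -1.66 to 0.01) did not pass (adjusted p = 0.176), and it ran from -1.36 without dd replicate 2 to -0.43 without dd replicate 1. Xbp1 (chromosome 11, 5520659 to 5525893, plus strand) had 5939 and 9412 counts in dd and 14106 and 7608 in ff. In CPM both dd libraries, at 251 and 311, lay between the ff libraries, at 424 and 244. Its log2 change was -0.25 (95% interval -0.99 to 0.49, adjusted p = 0.605), which turned to 0.20 without ff replicate 1 (adjusted p = 0.581). Gene counts do not separate the spliced, active form of Xbp1 mRNA from the unspliced form.

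Among the receptors, Cd79a (chromosome 7, 24897381 to 24902197, plus strand) and Cd79b rose. Cd79a had 131 and 376 counts in the dd libraries and 36 and 33 in the ff libraries, and the 2 dd libraries differed more from each other than the ff libraries did. Cd79a averaged 8.98 ± 4.86 CPM in dd and 1.07 ± 0.0156 CPM in ff (SD, n = 2 each), a log2 change of 3.07 (SE 0.46, adjusted p = 0.0314). Its partner chain Cd79b (chromosome 11, 106311341 to 106314762, minus strand) had 59 and 124 counts in dd, against 23 and 31 in ff. Cd79b averaged 3.30 ± 1.13 CPM in dd and 0.843 ± 0.215 CPM in ff (log2 1.97, SE 0.39, adjusted p = 0.0488). Only Cd79a without dd replicate 1 kept a call when 1 library was left out of the fit, of the 8 such fits for the 2 chains. Leaving out dd replicate 1 gave Cd79a a log2 change of 3.54, and leaving out dd replicate 2 gave 2.37. Cd79b kept its call in 7 of 15 alternative fits. With all libraries kept, its call was lost with upper quartile scaling (adjusted p = 0.0505), with limma-voom (0.0525) and in both limma-trend fits of FPKM (0.0565 and 0.0528).

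Tnfrsf17 (chromosome 16, 11313812 to 11320074, plus strand) encodes BCMA, a receptor through which plasma cells receive the survival signals APRIL and BAFF. It had 16 and 43 counts in the dd libraries and 2 and 8 in the ff libraries, and entered the test through the dd libraries alone. The dd libraries were higher, at 1.05 ± 0.525 CPM against 0.158 ± 0.139 CPM in ff (SD, n = 2 each). With so few counts the interval of the log2 change was wide, at 2.73 with bounds of 0.88 and 4.59, and Tnfrsf17 did not pass (adjusted p = 0.085). Leaving out ff replicate 2 gave Tnfrsf17 a log2 change of 4.05, and leaving out ff replicate 1 gave 2.03. Without a filter on low counts it passed (adjusted p = 0.0201).

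Levels of different genes were compared in the deposited FPKM values, which are relative to gene length. In the dd libraries Jchain came first at 265 ± 130 FPKM, followed by Xbp1 at 86.5 ± 13.5 and Prdm1 at 7.72 ± 3.41 FPKM (SD, n = 2). Derl3 at 6.62 ± 2.82 FPKM and Cd79a at 6.17 ± 3.37 FPKM came next and did not differ beyond their spread. Mzb1, Pou2af1, Cd79b, Tnfrsf17 and Irf4 followed, between 2.85 and 0.97 FPKM in dd. In the ff libraries the order began with Xbp1 at 103 ± 39.2 FPKM, and Jchain at 18.5 ± 6.64 and Prdm1 at 13.7 ± 2.54 FPKM changed places between the 2 replicates. The other 7 members lay between 1.21 FPKM for Mzb1 and 0.19 FPKM for Tnfrsf17 in ff. Set against 100 units of Jchain in the same library, Cd79a stood at 2.18 and 2.40 in dd and at 5.39 and 3.13 in ff. Mzb1 stood at 1.54 and 0.849 in dd and at 8.44 and 5.46 in ff, and Xbp1 at 44.3 and 26.9 in dd and at 947 and 324 in ff.

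Of 17 other plasma cell genes tested, 0 were called higher and 2 lower by edgeR, beside 4.52% and 3.86% of all tested genes, with a median log2 change of -0.10. Unadjusted, 2 were higher and 3 lower at p under 0.05, and DESeq2 and limma-voom called 0 higher, while the fit without a filter called 1. The share of all tested genes at that unadjusted threshold was not computed, so these counts are no sign of a change in the list. The 2 higher at an unadjusted p under 0.05, named after their values were seen, were Eaf2 (log2 1.31, adjusted p = 0.0778) and Tnfrsf13b, the receptor TACI (log2 0.82, adjusted p = 0.111). Cd38, a surface enzyme found on plasma cells and on many other cells, fell to 15.2 ± 0.799 CPM in dd, against 40.8 ± 0.513 CPM in ff (SD, n = 2 each, log2 -1.42, adjusted p = 0.0156). Tent5c, a poly(A) polymerase that stabilises antibody mRNA in plasma cells, fell to 15.4 ± 0.0926 CPM in dd, against 27.2 ± 3.97 CPM in ff (log2 -0.82, adjusted p = 0.0402). Sdc1, the surface proteoglycan syndecan-1, which epithelia also carry, was at 65.7 ± 14.3 CPM in dd and 66.1 ± 12.4 CPM in ff. Txndc5, an ER oxidoreductase, was at 344 ± 17.6 CPM in dd and 275 ± 34.3 CPM in ff and did not pass (adjusted p = 0.176). Leaving out 1 library at a time left between 0 and 2 of these genes lower, with 0 when ff replicate 1 was left out.

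The ER genes that XBP1 is known to drive gave no call in either direction. Of 27 chaperone, folding and export genes, edgeR called 0 higher and 0 lower, beside 4.52% and 3.86% of all tested genes. The log2 change was above 0 for 24 of the 27, with a median of 0.12. Unadjusted p-values under 0.05 were found for 2 higher and 0 lower genes, and DESeq2 and limma-voom called 0. Hsp90b1, the ER chaperone GRP94, was at 871 ± 23.2 CPM in dd and 656 ± 130 CPM in ff (SD, n = 2 each, adjusted p = 0.191). Hspa5, the ER chaperone BiP, was at 651 ± 260 CPM in dd and 597 ± 199 CPM in ff (adjusted p = 0.848), with libraries of the 2 groups overlapping.

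Of 25 other B cell genes 19 had enough counts, and 1 was higher and 2 lower, where 4.52% and 3.86% of all tested genes were. Unadjusted, 2 were higher and 8 lower at p under 0.05 by edgeR, a threshold whose share of all tested genes was not computed. The log2 change was above 0 for 4 of 19, with a median of -0.63. The 8 and the median include Fcmr, with 4 and 5 counts in dd and 21 and 12 in ff. Fcmr entered the test through the ff libraries alone, so that its direction was favoured by the filter. Blnk, an adaptor that links the B cell receptor to its kinases, rose to 25.5 ± 3.35 CPM in dd, against 11.5 ± 0.911 CPM in ff (SD, n = 2 each, log2 1.16, adjusted p = 0.0267). Ebf1, a B cell transcription factor that stromal and fat precursor cells also express, fell to 28.5 ± 2.89 CPM in dd, against 69.0 ± 9.45 CPM in ff (log2 -1.28, adjusted p = 0.0227). Cd72, a B cell co-receptor, had a log2 change of -1.23 (adjusted p = 0.0311). Blnk's list lost its 1 higher call without dd replicate 2, the lower calls numbered 0 without dd replicate 1 and 1 without dd replicate 2 or ff replicate 2, and without ff replicate 1 there were 0 in either direction. Ms4a1 and Pax5, defining genes of mature B cells named after their values were seen, were close to 0 in every library. Ms4a1, which encodes CD20, had 4 and 2 counts in dd and 6 and 3 in ff. Pax5, the B cell identity factor, had 2 and 0 counts in dd and 3 and 2 in ff. The floor of 3 counts equals 0.0901 to 0.127 CPM depending on the library, and neither gene had enough counts to be tested.

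Of 12 tested partner transcription factors of the same cells 0 were higher and 2 lower in edgeR, beside 4.52% and 3.86% of all tested genes, with 4 in each direction at an unadjusted p under 0.05, 2 higher by DESeq2 and 0 higher by limma-voom. Spi1, which encodes PU.1 of B and myeloid cells, fell to 3.69 ± 0.0426 CPM in dd, against 7.35 ± 0.269 CPM in ff (SD, n = 2 each, adjusted p = 0.0468). Batf3, a factor of dendritic cells, had a log2 change of -1.67 (adjusted p = 0.0428). Ets1 was at 40.5 ± 7.60 CPM in dd and 70.8 ± 7.80 CPM in ff (adjusted p = 0.0522), and Ikzf1, which encodes Ikaros, at 32.2 ± 0.28 CPM in dd and 19.4 ± 4.51 CPM in ff (adjusted p = 0.0783). Of 6 survival ligands and co-stimulators 1 was lower. Cxcl12, the chemokine that retains plasma cells in their niche, fell to 145 ± 6.46 CPM in dd, against 212 ± 7.47 CPM in ff (log2 -0.55, adjusted p = 0.0366). None of the 6 was higher in edgeR, DESeq2 or limma-voom (0 genes), with 1 higher at an unadjusted p under 0.05. That gene, named after its values were seen, was Il6, with 20 and 23 counts in dd and 1 and 9 in ff. Il6 entered the test through the dd libraries alone and did not pass (log2 2.33, edgeR adjusted p = 0.128). Tnfsf13, which encodes APRIL, was at 2.87 CPM in dd and 2.41 CPM in ff (adjusted p = 0.547). The calls of Spi1, Batf3 and Cxcl12 were lost whichever library was left out (0 genes lower in either list).

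**Figure D4:**
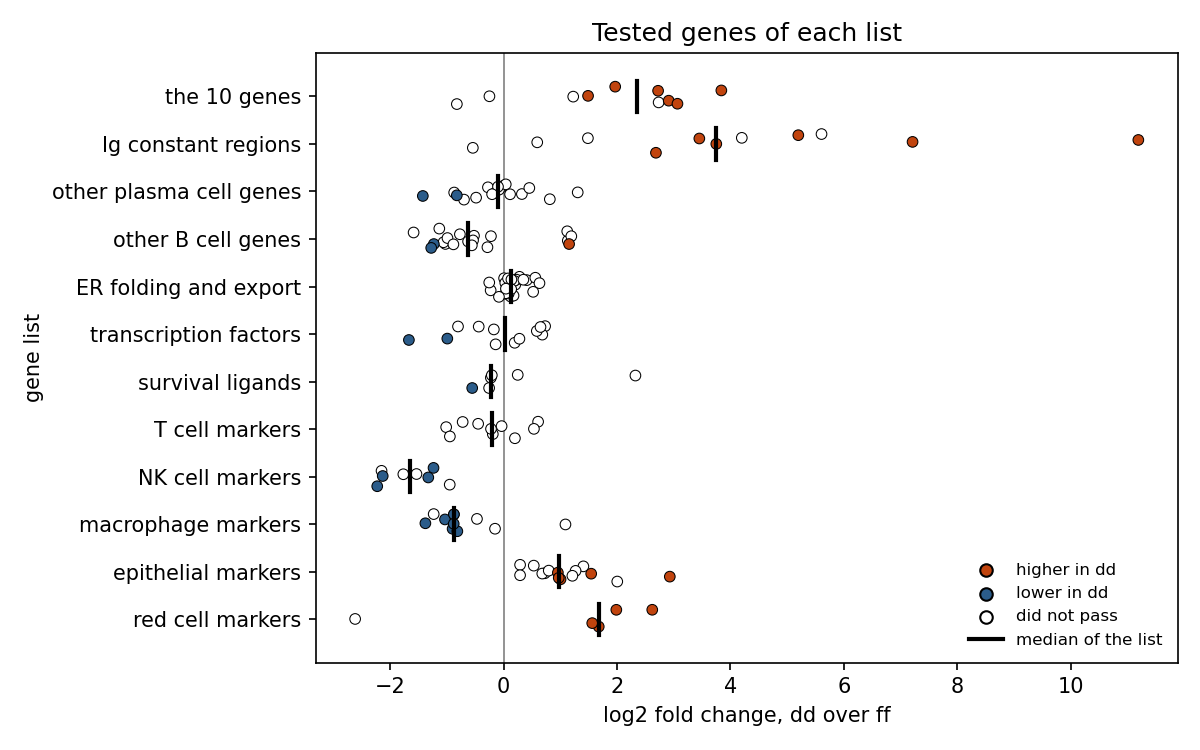
Log2 fold change of dd over ff for the tested genes of each list, filled where the adjusted p was under 0.05, with the median as a bar. The 10 genes have a median of 2.35 and the Ig constant regions 3.75, while the other plasma cell genes lie around -0.10 and the ER genes around 0.12. The 10 genes and the Ig constant regions include genes that entered the test through the dd libraries alone.

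Markers of other cell types moved in the same libraries, where edgeR called 4.52% of all tested genes higher and 3.86% lower. Of 12 immunoglobulin constant regions 11 were tested, and 6 were higher and 0 lower by edgeR, with 0 lower at an unadjusted p under 0.05. Some of these regions entered the test through the dd libraries alone, so that a lower call was hardly possible for them. Epithelial markers were higher for 5 of 15 genes, with a summed level of 3148 and 3584 CPM in the dd libraries and 1414 and 1639 CPM in the ff libraries. Red cell markers were higher for 4 of 5, at 238 and 305 CPM in dd and 69.1 and 68.0 CPM in ff, and oviduct markers for 2 of 5, at 451 and 470 CPM in dd and 320 and 273 CPM in ff. The remaining red cell marker, Hba-a2, went the other way, with 51 and 4 counts in dd and 205 and 233 in ff. It did not pass (log2 -2.62, edgeR adjusted p = 0.174). Stromal markers were lower for 5 of 11, at 10678 and 7491 CPM in dd and 15736 and 13929 CPM in ff, and endothelial markers for 8 of 10, at 800 and 808 CPM in dd and 1741 and 1478 CPM in ff. Lymph node markers had 4 of 7 genes tested and 0 called, at 182 and 95.6 CPM in dd and 97.9 and 122 CPM in ff, nearly all of it Ccl21a. Glycam1, made by lymph node vessels, had 0 counts in both dd libraries and 16 and 0 in the ff libraries, and Ccl19 had at most 1 count in any library. The part of epithelial, red cell, oviduct, stromal and endothelial RNA in the rise of the 6 genes was not tested.

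T cell markers had 0 of 10 called by edgeR, beside the 4.52% higher and 3.86% lower of all tested genes. Unadjusted, 2 of them were lower at p under 0.05, a threshold whose share of all tested genes was not computed. Their median log2 change was -0.21, with a summed level of 22.4 and 20.8 CPM in dd and 27.8 and 25.7 CPM in ff. That median includes Cd8b1 (6 and 5 counts in dd, 11 and 11 in ff), which entered the test through the ff libraries alone. NK cell markers were lower for 4 of 8, with a median of -1.65, at 36.9 and 24.9 CPM in dd and 104 and 87.9 CPM in ff. Macrophage markers were lower for 6 of 11 with a median of -0.88, and dendritic cell markers for 1 of 8 with a median of -0.77. Macrophage markers summed to 450 and 438 CPM in dd and 553 and 650 CPM in ff, and dendritic cell markers to 35.6 and 35.1 CPM in dd and 58.7 and 54.9 CPM in ff. Against the direction of these sums, and named after their values were seen, Cd14 of macrophages had a log2 change of 1.09 (edgeR adjusted p = 0.0604) and Siglech of plasmacytoid dendritic cells one of 1.10 (adjusted p = 0.184), and neither passed.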

How the data were processed

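STAR, edgeR and mm10 are named in the submitters' processing notes. Not given in the sources used here were the read counter, the annotation and any use of strand. The authors deposited whole-number counts per gene, rescaled counts (a signal column, not used) and FPKM values, as named per the file headers. The deposited table also holds a ratio, the fold of dd to ff. Its p-value column, deposited without adjustment, names no test. Positions came from GENCODE release M21, on the same build. No member overlaps a gene on the opposite strand (0 genes), and the genes that overlap Mzb1 and Pou2af1 on the same strand had at most 1 count.

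Counts of all 54152 symbols were fitted with edgeR 4.0.16 (R 4.3.3): filterByExpr, TMM, glmQLFit and glmQLFTest on all 4 libraries, Benjamini-Hochberg adjustment over 18530 genes, calls at an adjusted p under 0.05. The SE of a log2 change is its size divided by the square root of F. CPM is relative to the TMM-scaled library size. DESeq2 1.42.0 and limma 3.58.1 served as alternatives. Replicates differed by more than sampling noise (chi-square per degree of freedom 36.0 in dd and 35.3 in ff).

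The members and the 16 lists were chosen with earlier results of these data known. Named genes were the 10 members and, of each companion list, the called genes and the 2 with the highest mean FPKM, except where the text says otherwise. Marker lists were described by counts, medians and summed CPM. A further B cell gene is not reported here.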

Additional observations from a re-analysis of the deposited data

How the results depend on the processing

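Of 149 values of the 10 genes under the alternatives, 119 kept their direction and their side of the threshold, 20 lost the call (16 of them with 1 library left out), 9 gained it and 1 turned. The count of members higher was 6, between 5 and 8 under the alternatives that kept all libraries, and between 0 and 4 with 1 library left out. All genes called numbered 1554, against 2947 without a filter, 3001 with the DESeq2 Wald test, and between 90 and 1198 with 1 library left out. The log2 change of Xbp1 ran from -0.60 to 0.20 with 1 library left out. With a replicate block 7 members were higher, Tnfrsf17 (adjusted p = 0.0454) being the additional call, 1531 genes were called in all, and the calls of Spi1, Batf3 and Cxcl12 were lost. Nothing in the labels says what a replicate number shares, and deviations of same-numbered libraries correlated at 0.01 across genes, so the block was not the main design. Leaving the immunoglobulin genes out of the fit gave 7 members higher. Of 150 counts over the companion lists 123 stayed within 1.5 times and 27 moved. With 2 libraries per group, members under about 10 counts, such as Tnfrsf17 in ff, are limited by depth. A group reduced to 1 library was taken to have the spread of the full group. The cause of each lost call was not tested.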

Other observations

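By the Euclidean distance between log2(CPM + 0.5) profiles centred on each gene's mean, among 12234 genes that averaged 5 CPM or more in either group (unnamed Gm and Rik loci left out), Igkc was nearest to Jchain (0.296), followed by BC035947 (0.383), Ighv1-81 (0.419), Igkv3-4 (0.419) and Igkv12-41 (0.44). Apart from Igkc, these genes met the 5 CPM minimum through the dd libraries alone, with means between 0.0321 and 0.534 CPM in ff. Their log2 changes, from 4.32 for Igkv3-4 to 7.81 for Ighv1-81, exceeded the 3.84 of Jchain, and adding 0.5 narrows such differences at values near 0. BC035947, a protein-coding gene outside the antibody loci, had 151 and 395 counts in the dd libraries and 6 and 9 in the ff libraries (log2 5.36, edgeR adjusted p = 0.02). Of the other 9 members, Cd79a (1.40) and Derl3 (1.41) were nearest to Jchain, and Xbp1 (4.16) and Prdm1 (4.73) farthest.

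The authors' deposited table gives folds of dd over ff of 14.4 for Jchain, 8.39 for Cd79a and 7.54 for Derl3, with unadjusted p-values of 7.93e-14, 4.23e-09 and 1.12e-08. In the authors' deposited table Mzb1 has 2.34 (unadjusted p-value 0.0141), Tnfrsf17 6.64 (3.79e-05) and Prdm1 0.565 (0.0755).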
